A study of Bos grunniens and Bos grunniens x Bos taurus with 2 samples.

Results

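*KDR*, *FLT4*, *TEK* and *TIE1* encode the receptor tyrosine kinases through which the cells lining blood and lymph vessels receive growth factors. The members were the 4 features with these symbols, of 26961 genes in the annotation, and their raw counts were read in every cell class of a yak and a cattle-yak testis. KDR is the main signalling receptor for VEGFA, and FLT4 receives VEGFC and VEGFD and drives the growth of lymphatic vessels. TEK, also called TIE2, is the receptor of the angiopoietins, with ANGPT1 as its activating ligand and ANGPT2 as a ligand whose effect depends on context. TIE1 has no firmly established ligand of its own and works as a partner of TEK.

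Single-cell RNA libraries (10x Genomics) were made from testicular tissue of 1 sexually mature yak (*Bos grunniens*) and 1 sexually mature cattle-yak, the hybrid of yak and cattle, whose males are sterile. Per the labels of both libraries the tissue had been frozen and thawed, then digested with collagenase, hyaluronidase and trypsin. With 1 library of each kind, animal, library and type of animal cannot be told apart, no test was possible, and every interval below is a 95% interval that covers counting error only. The 2 libraries held 11991 and 8930 cells with 60816600 and 43774841 unique molecular identifiers (UMIs, the counted RNA molecules), a median of 2533 and 3155 per cell. Limits on genes, UMIs and mitochondrial share kept 10324 yak and 7092 cattle-yak cells, and the removed cells held 40.4% and 40.0% of all UMIs. The libraries had 24 cell barcodes in common. The doublet caller Scrublet marked 0 yak and 251 cattle-yak cells (2.81%), so it did not work in the yak, and no cell was removed as a doublet.

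Endothelial cells were found by clustering without the 4 receptors and their ligands among the clustering genes. A cluster in each library led by *MMRN1*, *CCL21* and *PROX1*, genes of lymphatic endothelium, was called lymphatic EC-like (722 yak and 304 cattle-yak cells). Clusters with *VWF*, *CDH5*, *CLDN5* and *PECAM1* and no lymphatic genes were called blood EC-like (973 cells in 1 yak cluster and 749 cells in 2 cattle-yak clusters). One further cluster in each library, of 403 and 257 cells with a median of 7706 and 9941 UMIs, carried endothelial and pericyte genes together and was kept apart as a mixed cluster. Germ cell types in the yak were those the study gave per barcode: spermatogonial stem cells (SSC), spermatogonia (SPG), early and late spermatocytes (early-SPC, late-SPC) and spermatids (SPT). Levels are counts per 1000000 UMIs (CPM) over the summed cells of a class, and since reads were counted at transcript ends without regard to length, a level is compared between classes and not between genes.

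The receptors lay mainly in the endothelium. In the yak library the blood EC-like, lymphatic EC-like and mixed clusters together held 91.1% (90.3 to 92.0) of the *KDR* UMIs in kept cells. For *FLT4* the share was 91.1% (86.7 to 94.4) and for *TIE1* 88.0% (85.1 to 90.6). The share was lower for *TEK*, at 77.6% (75.2 to 79.9). In the cattle-yak library the 4 shares were 94.1% for *KDR*, 84.2% for *FLT4*, 86.2% for *TEK* and 93.0% for *TIE1*. The mixed cluster alone, with 8.31% of kept yak and 9.50% of kept cattle-yak UMIs, held 20.0% and 27.2% of those of *KDR*. Its shares were 16.1% and 21.2% for *TEK*, 12.5% and 29.3% for *TIE1*, and 1.70% and 1.67% for *FLT4*. The receptors divided differently between the vessel types. The lymphatic EC-like cells were 6.99% of kept yak cells, with 9.55% of all kept yak UMIs. They held 88.1% of the *FLT4* UMIs, 37.5% of those of *TIE1*, 18.0% of those of *KDR* and 9.96% of those of *TEK*. In the cattle-yak, with 4.29% of kept cells and 4.54% of kept UMIs, they held 77.5%, 10.9%, 5.44% and 2.32% in the same order.

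**Figure D1:**
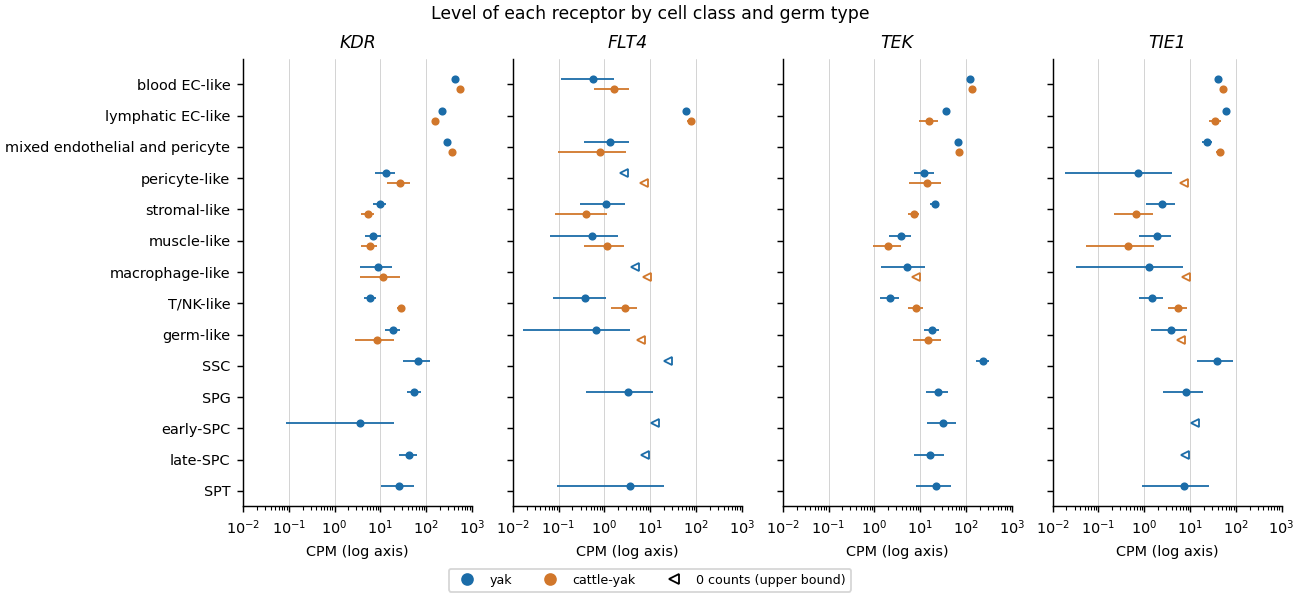
Level of each receptor in CPM (log axis) in the cell classes of both libraries and in the germ types of the yak; points are summed levels, bars are exact 95% Poisson intervals and open triangles mark the upper bound where no UMI was counted. *KDR*, *TEK* and *TIE1* are highest in endothelial rows, except *TEK* in the SSC row of the yak, and *FLT4* stands high only in the lymphatic EC-like row of each library.

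*KDR* had its highest level in blood EC-like cells of both libraries. In the yak it reached 421 CPM (404 to 439, 2263 UMIs) in blood EC-like cells and 221 CPM (205 to 237, 765 UMIs) in lymphatic EC-like cells. In the cattle-yak the levels were 553 CPM (529 to 577, 2100 UMIs) and 156 CPM (134 to 180, 186 UMIs). The intervals of blood and lymphatic cells did not overlap in either library. In log2 terms lymphatic over blood EC-like cells gave -0.93 (-1.05 to -0.81) in the yak and -1.82 (-2.05 to -1.61) in the cattle-yak. Outside the endothelium *KDR* stood between 5.40 and 27.9 CPM in the pericyte-like, stromal-like, muscle-like, macrophage-like and T/NK-like classes of both libraries. The 2 ends of that range were both in the cattle-yak, in stromal-like and T/NK-like cells.

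*FLT4* was nearly confined to lymphatic EC-like cells. Its level there was 59.8 CPM (51.9 to 68.5, 207 UMIs) in the yak and 78.0 CPM (63.0 to 95.6, 93 UMIs) in the cattle-yak. Blood EC-like cells held 3 UMIs in the yak, or 0.558 CPM (0.115 to 1.63), and 6 UMIs in the cattle-yak, or 1.58 CPM (0.580 to 3.44). These blood levels could not be separated from the background, read in T/NK-like cells, lymphocytes that should lack the gene, which held 0.372 CPM (3 UMIs) and 2.85 CPM (10 UMIs). Lymphatic EC-like cells exceeded blood EC-like cells by a log2 ratio of 6.74 (5.18 to 9.03) in the yak and 5.63 (4.45 to 7.11) in the cattle-yak. Even in its own class the gene was sparse, with a UMI in 22.0% and 25.0% of lymphatic EC-like cells and never more than 5 UMIs in a cell.

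*TEK* had the opposite pattern. Blood EC-like cells stood at 124 CPM (115 to 134, 668 UMIs) in the yak and 135 CPM (124 to 148, 514 UMIs) in the cattle-yak. Lymphatic EC-like cells stood at 37.3 CPM (31.1 to 44.3, 129 UMIs) and 15.9 CPM (9.59 to 24.9, 19 UMIs). The log2 ratio of lymphatic to blood EC-like cells was -1.74 (-2.02 to -1.46) in the yak and -3.09 (-3.83 to -2.43) in the cattle-yak, so that *TEK* was the receptor with the most negative ratio in both libraries. The lymphatic *TEK* level of the cattle-yak rests on 19 UMIs, and its interval overlapped that of the T/NK-like cells of the same library, 8.25 CPM (5.53 to 11.9, 29 UMIs). Of these 29 UMIs 16 lay in a cluster of dividing cells, and the other T/NK-like cells stood at 4.65 CPM (2.48 to 7.96), an interval that did not reach that of the lymphatic EC-like cells.

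*TIE1* was the receptor whose direction, in summed levels, differed between the animals. In the yak it was higher in lymphatic EC-like cells, 62.4 CPM (54.3 to 71.3, 216 UMIs), than in blood EC-like cells, 40.7 CPM (35.5 to 46.5, 219 UMIs). In the cattle-yak it was lower, 35.2 CPM (25.4 to 47.6, 42 UMIs) against 53.7 CPM (46.6 to 61.6, 204 UMIs). The log2 ratios were 0.61 (0.34 to 0.89) and -0.61 (-1.12 to -0.12), and the difference between them has no replicate check. With cells thinned to equal depth, 7.50% (5.67 to 9.69) of yak lymphatic EC-like cells had a *TIE1* UMI. In yak blood EC-like cells the share was 3.70% (2.58 to 5.14). In the cattle-yak the thinned shares were 4.29% (2.30 to 7.23) in lymphatic and 5.05% (3.56 to 6.92) in blood EC-like cells, with overlapping intervals. At equal depth the classes were thus separated in the yak only. With mitochondrial genes and the 2 most abundant unnamed transcripts left out of the UMI total, the ratio was 0.74 in the yak and -0.27 in the cattle-yak, and with cells limited to a mitochondrial share under 20% it was 0.58 and -0.29.

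At a 2-fold threshold, and among genes with at least 50 UMIs over both classes, 7.42% of genes were higher and 12.5% lower in lymphatic than in blood EC-like cells of the yak. Of the 4 receptors, 1 (*FLT4*) was higher and 1 (*TEK*) lower. In the cattle-yak 4.57% of genes were higher and 18.2% lower, and of the receptors 1 (*FLT4*) was higher and 2 (*KDR* and *TEK*) lower. The median log2 ratio over all genes tested was -0.10 in the yak and -0.39 in the cattle-yak, a general shift against which the receptor ratios are to be read.

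**Figure D2:**
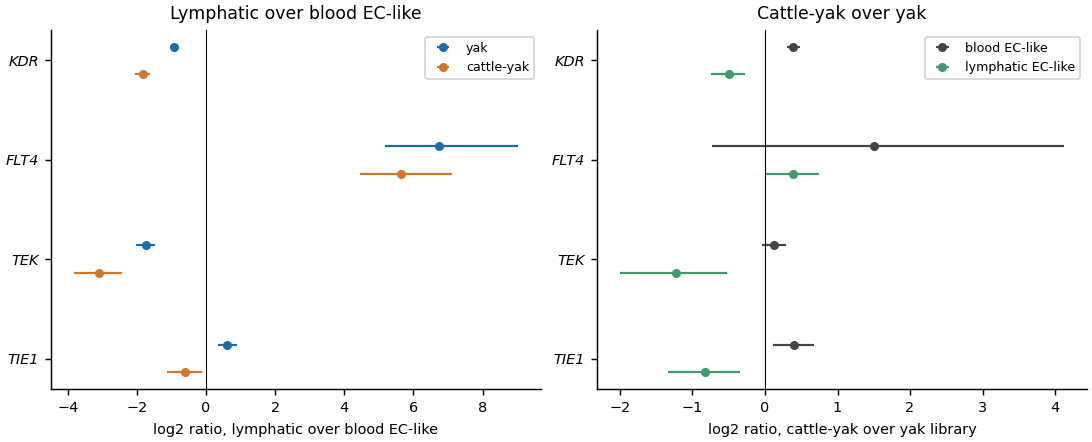
Log2 ratio of each receptor with its exact 95% counting interval, for lymphatic over blood EC-like cells within each library and for the cattle-yak over the yak library within each vessel class. The *FLT4* ratios of lymphatic over blood cells lie at 6.74 and 5.63, those of *KDR* and *TEK* lie below 0, and *TIE1* lies on opposite sides of 0 in the 2 animals.

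Between blood and lymphatic EC-like cells the share of cells with a receptor UMI followed the levels. The deeper mixed cluster of the cattle-yak did not keep to this, with *KDR* at 373 CPM but in 88.7% of cells, more than in blood EC-like cells. A UMI of *KDR* was found in 69.9% of yak and 73.6% of cattle-yak blood EC-like cells, against 1.25% and 3.88% of T/NK-like cells. The median depth of these classes was 4331 and 4409 UMIs against 1941.5 and 2392, so each cell was also thinned to 1000 UMIs, which left out 55 and 36 blood EC-like cells that were shallower. At that depth the *KDR* share was 31.9% and 37.9% in blood EC-like cells and 0.659% and 1.07% in T/NK-like cells. The receptor stood well above the background at equal depth in both libraries. For *TEK* the blood EC-like share was 39.2% and 41.0% as counted, and 11.2% and 12.1% after thinning. For *TIE1* it was 18.0% and 21.1% as counted, and 3.70% and 5.05% after thinning. In lymphatic EC-like cells, with 15 and 1 cells left out, thinned *FLT4* was found in 5.37% and 6.93% of cells, from 22.0% and 25.0% as counted, and in 0 of the thinned blood EC-like cells. At 1000 UMIs any of the 4 receptors was seen in 41.9% and 48.7% of blood EC-like cells, 29.6% and 23.4% of lymphatic EC-like cells and 1.06% and 1.64% of T/NK-like cells. The corresponding shares without thinning were 80.7% and 82.9%, 69.4% and 57.9%, and 2.06% and 5.46%.

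Pairs of receptors were seen in the same cell about as often as their single shares would give. In thinned yak blood EC-like cells *KDR* and *TEK* were found together in 27 of 918 cells, or 2.94% (1.95 to 4.25), where the product of the single shares was 3.58%. In the cattle-yak they were found together in 28 of 713 cells, or 3.93% (2.63 to 5.63), against 4.57%. *KDR* and *TIE1* shared 1.85% (1.08 to 2.95) of yak and 2.1% (1.18 to 3.45) of cattle-yak blood EC-like cells, against products of 1.18% and 1.91%. In yak lymphatic EC-like cells *KDR* and *FLT4* were found together in 6 of 707 cells, or 0.849% (0.312 to 1.84), against 0.889%. Each of these products lay inside the interval of the share observed, so at this depth none of these pairs was seen to keep to the same or to separate cells.

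Between the libraries the receptors of blood EC-like cells were close. For the cattle-yak over the yak the log2 ratio in blood EC-like cells was 0.39 (0.31 to 0.48) for *KDR*, 0.12 (-0.05 to 0.29) for *TEK* and 0.40 (0.12 to 0.68) for *TIE1*. *FLT4*, with 6 against 3 UMIs, gave 1.5 (-0.73 to 4.13). At the 2-fold threshold 2.8% of genes were higher and 3.96% lower, and 0 of the 3 receptors with at least 50 UMIs were in either group. The *KDR* ratio was 0.11 with all cells used and 0.54 with the mitochondrial genes and the 2 unnamed transcripts left out of the total. The median mitochondrial share of these cells was 11.5% in the yak and 15.5% in the cattle-yak. The mixed cluster gave 0.40 (0.26 to 0.53) for *KDR*, 0.01 (-0.28 to 0.31) for *TEK* and 0.92 (0.48 to 1.37) for *TIE1*, with 0 of 3 receptors past 2-fold where 2.23% of genes were higher and 3.66% lower.

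In lymphatic EC-like cells 3 receptors were lower in the cattle-yak. The log2 ratio was -1.23 (-2.00 to -0.52) for *TEK*, -0.82 (-1.34 to -0.34) for *TIE1* and -0.50 (-0.74 to -0.27) for *KDR*, and *FLT4* was at 0.38 (0.01 to 0.74). Of the 4 receptors, 1 (*TEK*) was at least 2-fold lower and 0 were 2-fold higher, where 10.2% of genes were 2-fold lower and 1.7% higher, and the median over all genes was -0.34. The median mitochondrial share of these cells was 14.0% in the yak and 22.1% in the cattle-yak. Without the mitochondrial genes and the 2 unnamed transcripts in the total, the ratios were -0.87 for *TEK*, -0.47 for *TIE1*, -0.14 for *KDR* and 0.74 for *FLT4*. The change of total shifts all 4 ratios by the same amount, and leaves that of *KDR* near 0.

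Within blood EC-like cells *TEK* was higher in arterial-like cells than in the other cells summed, and *KDR* was lower. A sub-cluster of 205 yak and 161 cattle-yak cells carried arterial genes and was called arterial-like. Among these genes *BMX*, a kinase known from arterial endothelium, stood at 238 and 160.4 CPM. The study itself reports *BMX* as a marker of SSC, with the protein located by immunohistochemistry in SSC beside the seminiferous tubules. In the arterial-like cells *TEK* stood at 219.95 CPM (195 to 247, 282 UMIs) in the yak and 233 CPM (202 to 267, 205 UMIs) in the cattle-yak. In the other blood EC-like cells it stood at 94.3 and 106 CPM. Set against each other, the log2 ratio of arterial-like to other blood EC-like cells was 1.22 (0.99 to 1.45) and 1.14 (0.88 to 1.40). *KDR* moved the other way, with ratios of -0.71 and -0.61. Its arterial-like level was 283 CPM (255 to 314) in the yak and 394 CPM (353 to 437) in the cattle-yak. In the cattle-yak this was above the *KDR* level of a venous-like sub-cluster, 240.3 CPM (195 to 293). *TIE1* gave 0.10 and -0.64. At the 2-fold threshold 5.34% and 5.78% of genes were higher and 5.12% and 6.33% lower in the arterial-like cells, and 1 of the 3 receptors with enough counts, *TEK*, was higher in each library while 0 were lower.

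*KDR* was highest in sub-clusters that carried neither arterial nor venous names. In the yak the 197 cells led by *ESM1* and *COL12A1* had 766 CPM (700.1 to 837), and the 178 cells led by *TCAP* and *RFLNA* had 542 CPM (503 to 583). ESM1 is known as a product of endothelial tip cells, the leading cells of a growing vessel. In the cattle-yak the 231 cells led by *PVALB* had 714 CPM (671 to 758), and the 263 cells led by *COL12A1* and *ANGPT2* had 630.1 CPM (576 to 688). The venous-like sub-clusters had less, 294 CPM (268 to 320.4) over 335 yak cells and 240.3 CPM (195 to 293) over 59 cattle-yak cells. After thinning to 1000 UMIs, *KDR* was seen in 50.5% of the yak cells led by *ESM1*, 33.9% of those led by *TCAP*, 25.1% of the venous-like and 23.9% of the arterial-like cells. In the cattle-yak the thinned shares were 45.8% in the cells led by *PVALB*, 39.7% in those led by *COL12A1*, 33.3% in the arterial-like and 15.5% in the venous-like cells. In the yak the venous-like and arterial-like cells were close on both measures. The smaller sub-clusters did not all keep to the order of the levels, as the 27 yak cells led by *CXCL11* had 529 CPM and a thinned share of 40.7%.

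The venous-like cells differed most between the libraries for *TEK*, at 84.2 CPM (71.0 to 99.1) in the yak and 163 CPM (126 to 207) in the cattle-yak, a log2 ratio of 0.95 (0.51 to 1.38). *KDR* gave -0.29 (-0.61 to 0.02) in the same cells, and 0 of 3 receptors passed 2-fold where 3.5% of genes were higher and 5.17% lower. The arterial-like cells gave 0.08 (-0.18 to 0.35) for *TEK* and 0.47 (0.26 to 0.69) for *KDR*, again with 0 of 3 past 2-fold beside 1.47% of genes higher and 3.68% lower. The venous-like sub-cluster of the cattle-yak was led by the chemokine genes *CXCL11* and *CXCL10*. In the yak these genes led a separate sub-cluster of 27 cells with *TEK* at 138 CPM (92.5 to 198). Whether the venous-like cells of the 2 libraries are the same mix of cells was not tested. One small sub-cluster in each library carried genes of another cell type, T cell genes in 31 yak cells and stromal genes in 35 cattle-yak cells. *KDR* stood at 391 and 407 CPM in these. *FLT4* had between 0 and 2 UMIs in every blood EC-like sub-cluster of both libraries.

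**Figure D3:**
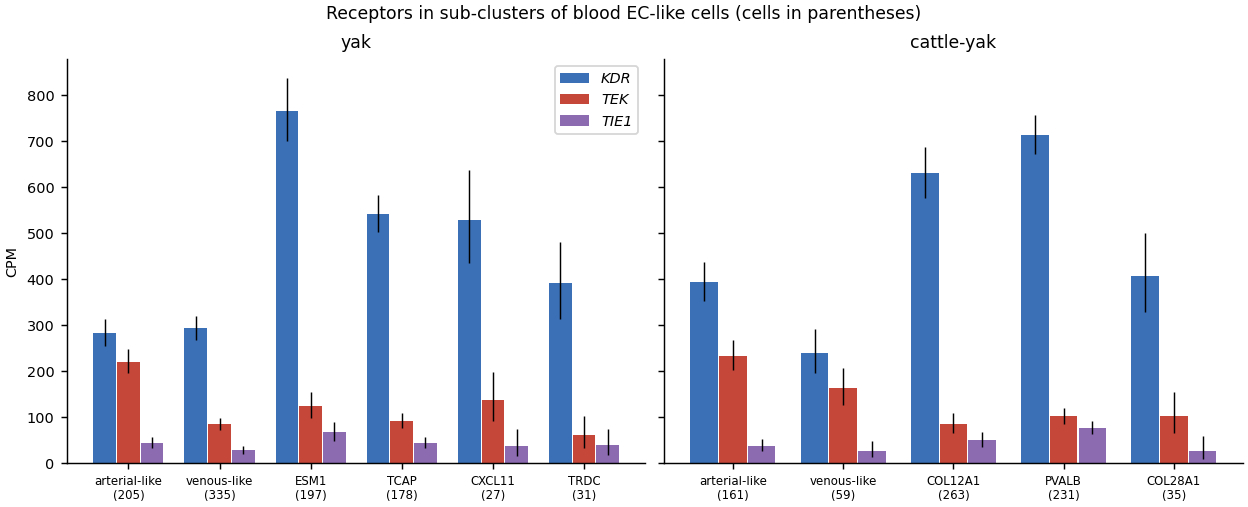
CPM of *KDR*, *TEK* and *TIE1* in the sub-clusters of blood EC-like cells of each library, with exact 95% Poisson intervals. In summed level *TEK* is highest in the arterial-like sub-cluster of each library, 219.95 and 233 CPM. *KDR* is highest in the sub-clusters led by *ESM1* (yak, 766 CPM) and *PVALB* (cattle-yak, 714 CPM).

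The make-up of the receptor UMIs also differed between the classes. Among the 3153 receptor UMIs of yak blood EC-like cells, 71.8% were of *KDR*, 21.2% of *TEK*, 6.95% of *TIE1* and 0.0951% of *FLT4*. Among the 1317 of yak lymphatic EC-like cells the shares were 58.1%, 9.79%, 16.4% and 15.7% in the same order. In the arterial-like cells *TEK* made up 40.3% of 700 UMIs in the yak and 35.0% (31.2 to 39.1) of 585 in the cattle-yak. In the venous-like cells it made up 20.7% of 694 and 37.9% (30.7 to 45.4) of 177. Only in the yak was the arterial-like share the higher one. The cattle-yak make-up was 74.4%, 18.2%, 7.22% and 0.212% of 2824 UMIs in blood and 54.7%, 5.59%, 12.4% and 27.4% of 340 UMIs in lymphatic EC-like cells. Because counting efficiency can differ between genes, the shares show how the make-up shifts between classes and not which receptor is most abundant.

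**Figure D4:**
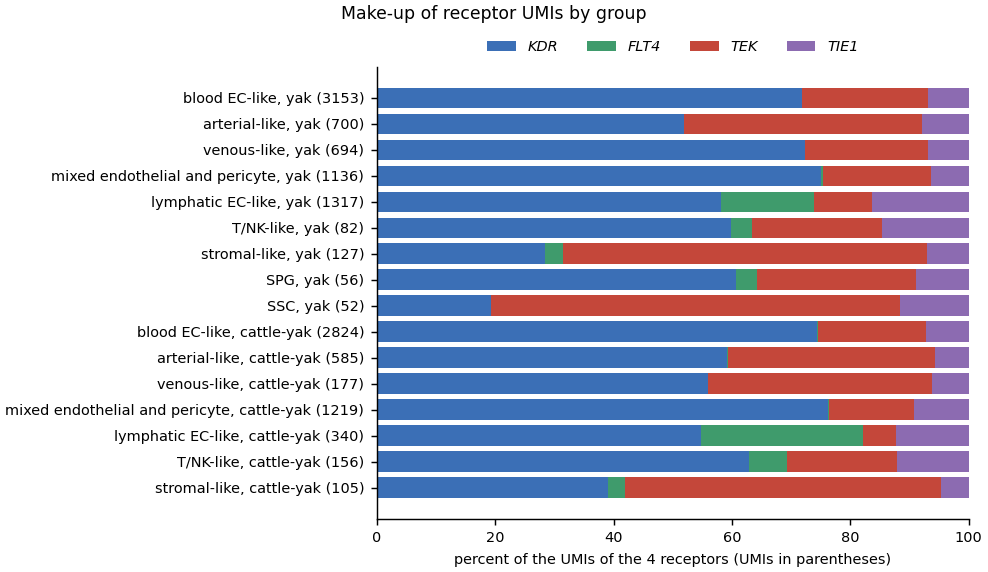
Share of each receptor among the summed UMIs of all 4, in percent, for classes and germ types of both libraries. *FLT4* takes 15.7% and 27.4% in lymphatic EC-like cells and under 1% in blood EC-like cells, and *TEK* takes 69.2% in the yak SSC type.

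In the yak *TEK* had a larger share of its UMIs outside the endothelial clusters than the other 3 receptors. Stromal-like cells of the yak held 78 UMIs, 21.0 CPM (16.6 to 26.2), with a UMI in 7.06% of 878 cells. T/NK-like cells of the same library held 2.24 CPM, so the log2 ratio of stromal-like to T/NK-like cells was 3.23 (2.48 to 4.06). *KDR* gave 0.67 in the same comparison. In the cattle-yak the 2880 stromal-like cells held 56 *TEK* UMIs, 7.37 CPM (5.57 to 9.57), a log2 ratio of -0.16 to T/NK-like cells. At the 2-fold threshold 26.3% and 24.5% of genes were higher and 16.5% and 13.8% lower in stromal-like cells, and of the 2 receptors with enough counts 1 was higher in the yak (*TEK*) and 1 lower in the cattle-yak (*KDR*). The cattle-yak call rested on the dividing T/NK-like cells. Against the other T/NK-like cells, at 7.87 CPM (4.93 to 11.9) of *KDR* and 4.65 CPM (2.48 to 7.96) of *TEK*, the stromal-like *KDR* level of 5.40 CPM (3.87 to 7.32) was not 2-fold lower and the *TEK* level was the higher one, with overlapping intervals for both genes. *TEK* varied from 2.94 to 15.4 CPM over the 5 cattle-yak stromal-like clusters. Among the 62 yak stromal-like cells with *TEK*, 25 (40.3%) also had a UMI of an endothelial marker gene, against 28.3% of the stromal-like cells without *TEK*, and their median depth was 5114 against 3888 UMIs. The summed endothelial markers stood at 581 CPM in the cells with *TEK* and 129.8 CPM in those without. In the cattle-yak the shares were 26.4% and 21.5%, and the summed markers 134 and 105 CPM. Of the 25 yak stromal-like cells with *KDR*, 76% had an endothelial UMI, and their summed markers stood at 1351 CPM. The part of endothelial RNA in the stromal-like *TEK* level was not tested. In pericyte-like cells *TEK* stood at 12.3 CPM (17 UMIs) in the yak and 14.2 CPM (7 UMIs) in the cattle-yak.

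The T/NK-like background was uneven in the cattle-yak. Of its 98 *KDR* UMIs, 76 lay in a cluster of 137 dividing cells, at 106 CPM (83.2 to 132) and in 21.9% of cells. Without that cluster the T/NK-like cells held 7.87 CPM of *KDR*, 4.65 of *TEK*, 2.15 of *TIE1* and 2.86 of *FLT4*. Of the 49 cattle-yak T/NK-like cells with *KDR*, dividing or not, 65.3% had an endothelial marker UMI, against 15.9% of those without. The summed endothelial markers stood at 1590 and 81.8 CPM, at median depths of 5096 and 2368 UMIs. The part of endothelial RNA in the T/NK-like *KDR* level was not tested. In the yak the 72 dividing T/NK-like cells held 5 *KDR* UMIs, 10.5 CPM. With every T/NK-like cell summed, cattle-yak over yak gave a log2 ratio of 2.20 (1.69 to 2.72) for *KDR*, the 1 receptor with at least 50 UMIs, which was thus 2-fold higher, where 8.19% of genes were 2-fold higher and 7.53% lower.

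Among the germ types *TEK* stood out in the SSC type. The 84 SSC cells held 36 *TEK* UMIs, 235 CPM (165 to 326), with a UMI in 28 cells (33.3%). The other types were lower, with 24.2 CPM in SPG (13.6 to 40.0, 15 UMIs), 31.6 in early-SPC (14.5 to 59.995, 9 UMIs), 16.8 in late-SPC (8 UMIs) and 22.1 in SPT (6 UMIs). The intervals of these 4 types overlap one another and none reaches that of the SSC type. The log2 ratio of SSC to SPG cells was 3.28 (2.37 to 4.25), where 6.2% of genes with at least 50 UMIs were 2-fold higher and 21.6% lower, and *TEK* was the 1 receptor with enough counts. The study itself lists *TEK* for the SSC type from the same cells, so the ratio is a description and not independent evidence. After thinning, *TEK* was found in 18.2% of the SSC cells and 2.11% of the SPG cells, with 7 and 249 shallower cells left out at median depths of 1605 and 979.5 UMIs.

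The SSC level of *TEK* was close to that of arterial-like endothelium, a log2 ratio of 0.10 (-0.45 to 0.60), while *KDR* was lower in SSC cells, with a ratio of -2.12 (-3.19 to -1.22). At the 2-fold threshold 6.18% of genes were higher and 17% lower in this comparison, and of the 3 receptors with enough counts 0 were higher and 1, *KDR*, was lower. *TIE1*, with 6 UMIs in SSC cells at 39.2 CPM (14.4 to 85.3), gave -0.13 (-1.64 to 1.08). *KDR* itself was at 65.3 CPM (31.3 to 120.1, 10 UMIs) in SSC, 54.9 in SPG (34 UMIs), 3.51 in early-SPC (1 UMI), 42.0 in late-SPC (20 UMIs) and 25.8 in SPT (7 UMIs). Its levels in SSC and SPG could not be separated, with a log2 ratio of 0.25 (-0.93 to 1.30). *TIE1* was also higher in SSC than in SPG cells, where it stood at 8.08 CPM (2.62 to 18.9, 5 UMIs). The log2 ratio was 2.28 (0.30 to 4.33), on too few UMIs for the 2-fold count. It had 0 UMIs in early-SPC and late-SPC cells and 2 in SPT, at 7.36 CPM. *FLT4* had 0 UMIs in SSC, early-SPC and late-SPC cells, 2 in SPG and 1 in SPT.

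Like *TEK*, endothelial genes stood higher in the SSC type than in the other germ types. The summed endothelial markers, 11 of 12 of which had a count there, stood at 2058 CPM in SSC cells, against 474 in SPG, 56.2 in early-SPC, 332 in late-SPC, 376 in SPT, 106 in T/NK-like and 4172 in arterial-like cells. The summed germ cell markers stood at 830 CPM in SSC cells, against 2337 in SPG, 5892 in early-SPC, 134 in T/NK-like and 66.3 in arterial-like cells. A UMI of the endothelial list was found in 76 of the 84 SSC cells (90.5%) and a UMI of the germ list in 61 (72.6%). Of the 28 cells with *TEK*, 27 had an endothelial UMI and 21 a germ UMI. Of the 56 SSC cells without *TEK*, 87.5% also had an endothelial UMI. The summed endothelial markers stood at 2446 CPM in the SSC cells with *TEK* and 1841 CPM in those without. The clustering placed 64 of the 84 cells in germ-like clusters, with 31 of the 36 *TEK* UMIs, and 7 in the blood EC-like cluster, with 1 *TEK* UMI. With typed cells in germ-like clusters only, the log2 ratio of SSC to SPG was 3.34. How far endothelial RNA contributed to the *TEK* level of the SSC type was not tested.

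The 299 untyped germ-like yak cells held *TEK* at 18.1 CPM (28 UMIs) and *KDR* at 18.7 CPM (29 UMIs). Their 4 clusters differed in *KDR*, with 62.3 CPM (31.1 to 111, 11 UMIs) and 56.2 CPM (29.1 to 98.2, 12 UMIs) in clusters of 64 and 94 cells, and 7.36 and 3.99 CPM (3 UMIs each) in clusters of 70 and 71 cells. Depth differed along with *KDR*, with a median of 1880.5 and 907 UMIs in the clusters of 64 and 94 cells, and 4999 and 11472 in those of 70 and 71. *TEK* ranged from 4.90 to 37.5 CPM over the same clusters. In 108 germ-like cattle-yak cells the levels were 15.2 CPM (9 UMIs) and 8.44 CPM (5 UMIs). No SSC type was given for the cattle-yak, so the pattern could be read in 1 animal only.

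Among the named cell classes and the mixed cluster, the ligands of these receptors mostly had their highest level outside the endothelium. Unnamed clusters, cells typed by the study and sub-clusters of blood EC-like cells were not part of this ranking. Most of the 9 classes ranked were not endothelial, and the same count over all genes is not given here. Some ranks rest on few UMIs, as that of *PGF* in cattle-yak pericyte-like cells, with 3 UMIs at 6.09 CPM (1.26 to 17.8). Of 9 ligands in the list 7 were in the annotation, and in each library 1 of the 6 with at least 50 UMIs over the classes, *ANGPT2*, was highest in an endothelial class. *VEGFA*, the ligand of KDR, was highest in pericyte-like cells of the yak (133 CPM) and stromal-like cells of the cattle-yak (179 CPM). *VEGFC*, a ligand of FLT4, was highest among these classes in stromal-like cells, at 13.2 and 22.4 CPM. It was counted 0 times in yak and 3 times in cattle-yak lymphatic EC-like cells, where FLT4 itself lay. Among blood EC-like cells, 28 of the 30 *VEGFC* UMIs of the yak and 14 of the 16 of the cattle-yak were in the arterial-like cells. Over the 1282112 UMIs of the yak arterial-like cells this was a higher level than in stromal-like cells. Over the 879256 UMIs of the cattle-yak arterial-like cells it was a lower one. *ANGPT1* was highest in stromal-like cells of the yak (43.4 CPM) and muscle-like cells of the cattle-yak (39.0 CPM), and *ANGPT4* in pericyte-like cells of the yak (53.6 CPM) and stromal-like cells of the cattle-yak (75.2 CPM).

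*ANGPT2* was the exception. It reached 1015 CPM (982 to 1049) in yak and 521 CPM (481 to 563) in cattle-yak lymphatic EC-like cells, and 105 and 27.6 CPM in blood EC-like cells. The log2 ratio of lymphatic to blood was 3.27 and 4.24, so the ligand was high in the class where *TEK* was low. Within blood EC-like cells *ANGPT2* was also lower in the arterial-like cells, where *TEK* was high. The log2 ratios to the other blood EC-like cells were -3.17 and -2.59, the latter on 5 arterial-like UMIs. Other yak sub-clusters did not keep to this: *ANGPT2* and *TEK* stood at 250 and 124 CPM in cells led by *ESM1*, and at 70.7 and 84.2 CPM in venous-like cells. In the cattle-yak they stood at 60.2 and 85.3 CPM in cells led by *COL12A1*, and at 21.8 and 163 CPM in venous-like cells. For the cattle-yak over the yak the log2 ratio of *ANGPT2* was -1.93 in blood and -0.96 in lymphatic EC-like cells.

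**Figure D5:**
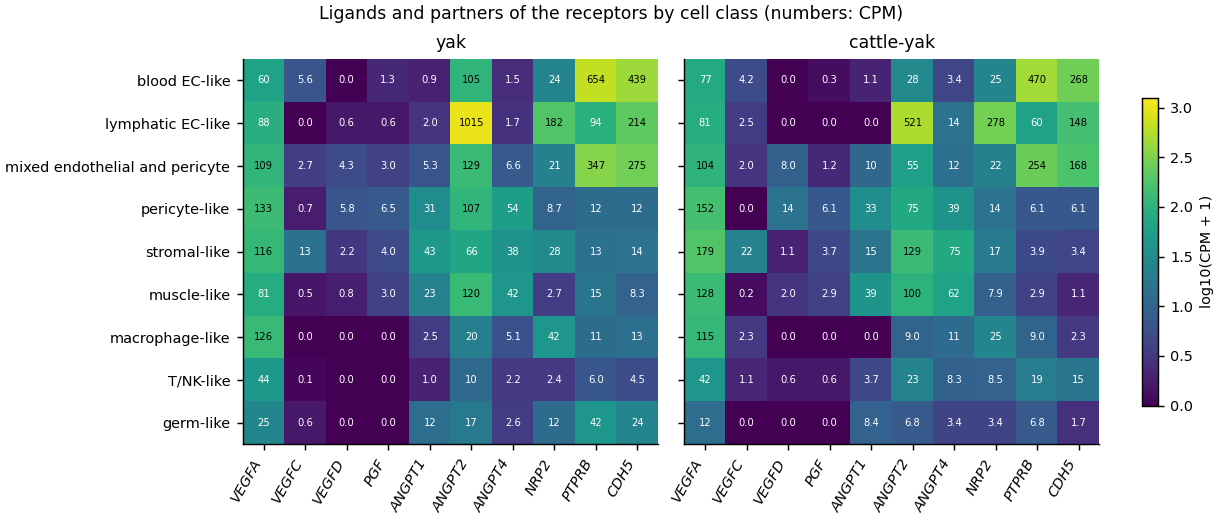
Heat maps of 7 ligands and of the partners *NRP2*, *PTPRB* and *CDH5* (columns) in the cell classes (rows) of both libraries, with colour on a log10(CPM + 1) scale and the CPM printed in each cell. *ANGPT2* stands at 1015 and 521 CPM in lymphatic EC-like cells. Among the classes shown, *VEGFA*, *VEGFC*, *ANGPT1* and *ANGPT4* are highest in pericyte-like, stromal-like or muscle-like cells.

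The co-receptors, signalling partners and transcription factors of the pathway divided between blood and lymph vessels as well. Over all 4 lists 19 of 30 annotated genes had at least 50 UMIs in the comparison of lymphatic with blood EC-like cells. In the yak 3 were at least 2-fold higher and 7 lower, where 7.42% of all genes tested were higher and 12.5% lower. In the cattle-yak 3 were higher and 8 lower, where 4.57% were higher and 18.2% lower. The genes higher in both were *ANGPT2*, *NRP2*, a co-receptor for VEGFC, with log2 ratios of 2.91 and 3.49, and *PROX1*, the transcription factor that sets lymphatic identity, with 6.98 and 7.97. *PROX1*, *CDH5*, *ERG* and *SOX18* are also in the marker lists that named the clusters, so their ratios are no independent evidence. Among them *ERG* was counted as lower in both libraries (-1.23 and -1.05) and *CDH5* in the yak (-1.04). *PTPRB*, the phosphatase that acts on TEK, was lower with -2.80 and -2.98, as was *EPAS1*, a hypoxia-regulated transcription factor, with -3.49 and -3.27. *NOS3*, the endothelial nitric oxide synthase, was at 42.4 CPM in yak and 33.7 CPM in cattle-yak blood EC-like cells, with 5 and 0 UMIs in lymphatic EC-like cells. The medians of the lists together were -0.42 and -0.86, beside -0.10 and -0.39 over all genes tested.

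In the comparison of the libraries 1 of 18 pathway genes, *ANGPT2*, passed the 2-fold threshold in blood EC-like cells, as a lower gene, where 2.8% of all genes were higher and 3.96% lower. In lymphatic EC-like cells it was 0 of 17, where 1.7% were higher and 10.2% lower. In the arterial-like cells *NOS3* was higher, with log2 ratios of 1.21 and 1.91 to the other blood EC-like cells, and *ANGPT2* and *NRP2* were lower in both libraries. These were 1 higher and 2 lower of 18 pathway genes with enough counts, beside 5.34% and 5.78% of all genes higher and 5.12% and 6.33% lower, and *PTPRB* was at 0.47 and 0.60.

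The genes whose level over the 9 classes of both libraries, 18 points in all, was most like that of each receptor were searched among 12502 genes. For *KDR* they were an unnamed gene (ENSBGRG00000004901, Pearson r 0.98), *RASIP1* (0.98), *AFAP1L1* (0.97), *MYCT1* (0.97) and *NOVA2* (0.97). For *FLT4* they included *MMRN1* (0.95), *KLHL4* (0.94), *HOXA6* (0.93) and *HTR4* (0.93). For *TEK* they were *S100B* (0.93), *BPNT1* (0.93), *DNM3* (0.92), *ELF2* (0.91) and *HSPA12B* (0.91), and for *TIE1* *S1PR1* (0.97), an unnamed gene (ENSBGRG00000025875, 0.97), *DIPK2B* (0.97), *HID1* (0.96) and *CDH5* (0.96). Among the receptors the closest pair was *KDR* and *TIE1* (0.93) and the least alike *FLT4* and *TEK* (0.24). The points share libraries and the depth of their classes, so these values are a description. *MMRN1* and *CDH5* are also in the marker lists that named the clusters, so their likeness is no independent evidence.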

How the data were processed

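Both testis libraries were 10x Genomics single-cell RNA. The authors deposited raw UMI counts per gene and cell barcode, made with Cell Ranger (5.0.0 in the file headers, 2.1.1 in the submitters' processing notes) against the yak genome, before any limit on cells. Replicates: 1 library per animal.

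Cells were kept with genes and UMIs within 2 SD of the library mean and a mitochondrial share under 30%, after the study's limits; this left more cells than the study states. Scaled log counts (10000 UMIs per cell) of 2000 variable genes, without the receptors and ligands, gave 30 principal components, 15 neighbours and Leiden clusters (resolution 1; sub-clusters 0.5; seed 0; scanpy 1.11.5, igraph 0.11.9, Python 3.11.15), 21 in the yak and 24 in the cattle-yak. A cluster was named from at least 3 listed markers with log2 of at least 1 over other cells and a UMI in 10% of cells; the lymphatic naming step and the mitochondrial gene set were defined after the clusters were seen. Cells typed by the study (1127) were taken out of the classes. Cells marked by Scrublet were kept.

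Counts were summed per class. Intervals are exact Poisson for CPM, exact binomial (Clopper-Pearson) for shares, and exact conditional for ratios, at 95% (scipy 1.17.1), with no pseudocount and a floor of 3 counts; PCR and cell sampling are not covered. The scripts were tested on simulated data. The genes named are the receptors, every gene of 4 pathway lists and, for each receptor, the 5 genes with the most similar log2(CPM + 1) pattern among genes with at least 200 counts (some genes are not reported here); sub-clusters are called by leading genes, and these and the single markers named were chosen after their values were seen. Of the lists, *VEGFB*, *FIGF*, *FLT1*, *NRP1*, *SHB*, *SHC2*, *PIK3R3*, *DLL4*, *GATA2*, *SOX7* and *SOX17* are not among the symbols of the annotation, where 15722 of 26961 genes have one. The receptors and lists were chosen with earlier results of these data known. None of the 4 receptors overlaps another gene in the RefSeq annotation of the yak. Alternatives were other totals, cell limits, clusterings, count minimums and thinning depths.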

Additional observations from a re-analysis of the deposited data

Results flagged for a closer look

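The log2 ratio of *TIE1* in lymphatic over blood EC-like cells was 0.61 in the yak and -0.61 in the cattle-yak, on opposite sides of 0, and was set apart for that. The difference between the animals was not tested, since each is 1 library. In shares of cells at equal depth the cattle-yak classes were not separated, at 4.29% (2.30 to 7.23) in lymphatic and 5.05% (3.56 to 6.92) in blood EC-like cells. For the other 3 receptors the ratio had the same sign in both libraries.

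Cells removed for UMIs or genes above the upper limit entered only the alternative with all cells, and held *KDR*, *TEK* and *TIE1* above the T/NK-like level. In the 792 such yak cells, with a median of 24012 UMIs, *KDR* stood at 128 CPM, *TEK* at 35.0 CPM, *TIE1* at 13.9 CPM and *FLT4* at 1.45 CPM. In the 570 such cattle-yak cells, with a median of 19717 UMIs, the levels were 192 CPM for *KDR*, 53.4 CPM for *TEK* and 23.5 CPM for *TIE1*, while *FLT4*, at 1.10 CPM (0.603 to 1.85), was lower than in T/NK-like cells, 2.85 CPM (1.36 to 5.23), with overlapping intervals. How many of these are single cells was not tested.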

How the results depend on the processing

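No paired analysis was possible because each kind of animal is 1 library. Alternatives were run for the ratios of lymphatic over blood EC-like cells, of cattle-yak over yak in both, and of SSC over SPG; among these no receptor ratio past 2-fold on at least 50 counts changed sign. The ratios of arterial-like, stromal-like, T/NK-like and SSC over arterial-like cells were not varied. Leaving mitochondrial genes and the 2 most abundant unnamed transcripts out of the total moved *KDR* to -0.81 (yak) and -1.49 (cattle-yak) for lymphatic over blood EC-like cells, and to 0.54 (blood) and -0.14 (lymphatic) for cattle-yak over yak. With all cells, the cattle-yak lymphatic over blood ratio of *KDR* was -1.55, and the cattle-yak over yak ratios in blood EC-like cells were 0.11 for *KDR* and -0.052 for *TEK*. At resolution 0.5 the latter *KDR* ratio was 0.51. Adding the mixed cluster to blood EC-like cells, an alternative chosen after seeing the data, gave -0.75 for *KDR* in the yak. Over the alternatives *FLT4* for cattle-yak over yak in blood EC-like cells ranged from -0.34 to 1.65, on single-digit counts in the main classes, and *KDR* for SSC over SPG from -0.16 to 0.28. The number of genes past 2-fold was, with at least 10, 50 and 200 counts, 3019, 1602 and 822 (lymphatic over blood, yak), 2885, 1464 and 657 (the same, cattle-yak), 1782, 539 and 184 (cattle-yak over yak, blood), 2111, 731 and 208 (lymphatic) and 2371, 682 and 115 (SSC over SPG). Of 184 other values, all of them shares, 77 stayed within their interval and 107 moved, most of those moved being shares at another thinning depth. A share cannot change sign, so no direction could be checked for these. The few UMIs of each receptor in the germ types limit the precision there.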

Other observations

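A yak cluster of 68 cells led by *WFDC2* and *TF*, which matched no marker list, held *KDR* without the other receptors. It had 17 *KDR* UMIs, 72.1 CPM (42.0 to 115), in 11 cells (16.2%), and 0 UMIs of *FLT4*, *TEK* and *TIE1*. The 11 cells with *KDR* were deeper, with a median of 7222 UMIs against 1965 in the 57 without. After thinning to 1000 UMIs, with 16 cells left out, *KDR* was seen in 2 of 52 cells, or 3.85% (0.469 to 13.2). An endothelial marker UMI was found in 3 of the 11 cells with *KDR*, and the endothelial list stood at 63.6 CPM in the cluster, against 106 CPM in T/NK-like cells. The 29 cells with the same leading genes in the cattle-yak held 3 *KDR* UMIs, 25.4 CPM (5.25 to 74.4), and 0 of the others.

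A shallow yak cluster of 498 cells led by *ADAMTSL5* and *LIMA1*, with a median of 891.5 UMIs, was left without a name. *KDR* stood there at 145 CPM (86 UMIs), *TEK* at 77.7 CPM (46 UMIs) and the endothelial list at 1370 CPM.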
